A study of Mus musculus with 30 samples.

Results

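Fatty acid oxidation genes were followed across 4 mouse tissues during angiotensin II infusion. The group held 32 genes listed by name for their known roles, and 30 of them had a probe set annotated to a single symbol, out of 18193 such genes on the array. Cpt1b, the muscle form of carnitine palmitoyltransferase 1, and Acsl1, the main long-chain acyl-CoA synthetase of heart, were not analysed here. The 30 genes were grouped as long-chain entry into mitochondria (3), acyl-CoA dehydrogenases (5), later steps of the spiral (5), auxiliary enzymes (3), electron transfer (3), uptake and binding (4), transcriptional regulators (5), and malonyl-CoA and acetyl-carnitine balance (2).

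Long-chain fatty acids enter mitochondria as carnitine esters and are then shortened in a repeating spiral of dehydrogenation, hydration, a further dehydrogenation and thiolysis, which feeds electrons and acetyl-CoA to respiration. The working heart draws most of its ATP from this pathway, the kidney's proximal tubule also depends on it, and neurons use it little. PPAR alpha, a nuclear receptor activated by fatty acids, drives many of these genes together with the coactivator PGC-1 alpha (Ppargc1a) and the estrogen-related receptor alpha (Esrra).

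RNA came from C57BL/6 male mice aged 8 to 10 weeks. Treated animals received angiotensin II, the pressor peptide of the renin-angiotensin system, at 1500 ng/kg/min from an implanted osmotic pump for 1, 3 or 7 days, and untreated animals stood as day 0. Heart had 3 arrays at each of days 0, 1, 3 and 7, kidney had 2 at each of those days, brain had 2 at days 0, 3 and 7, and vessel had 1 at each of days 0, 1, 3 and 7, which makes 30 arrays. The labels call the arrays biological replicates. Whether organs of 1 animal were used together, and whether any pump was implanted in untreated mice, is not stated, so pump surgery and the peptide cannot be told apart. The labels do not name the vessel taken.

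Values are deposited probe set intensities on a linear scale. Array medians lay between 35.2 and 37.8, so the arrays were on a common scale. Precision is limited by having only 1 to 3 arrays a group. Differences below are on the log2(intensity + 16) scale with the standard error (SE) of the fit, which understates changes of dim genes, and a gene was called when its limma p, Benjamini-Hochberg adjusted over every gene tested in that comparison, was under 0.05. All 30 genes passed the filter on low values in heart, kidney and brain.

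Markers of other tissues were present on some arrays, and these touch the results. The median of 8 heart muscle markers was 13.7 to 13.9 on every heart array, and none of the 8 was called at day 1, 3 or 7. Markers of white and brown adipocytes had a median of 9.38 and 9.5 on the kidney day 1 arrays and 10.93 on kidney day 3 replicate 2, against 5.19 to 5.58 on the other kidney arrays. Adrenal markers had a median of 7.60 on kidney day 0 replicate 2 and 7.90 on kidney day 3 replicate 2, against 5.35 to 5.58 on the other kidney arrays. All 4 vessel arrays carried adipocyte markers, with medians of 10.87 to 11.83. In bulk tissue, fewer cells of a type and less RNA per cell cannot be told apart.

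**Figure D1:**
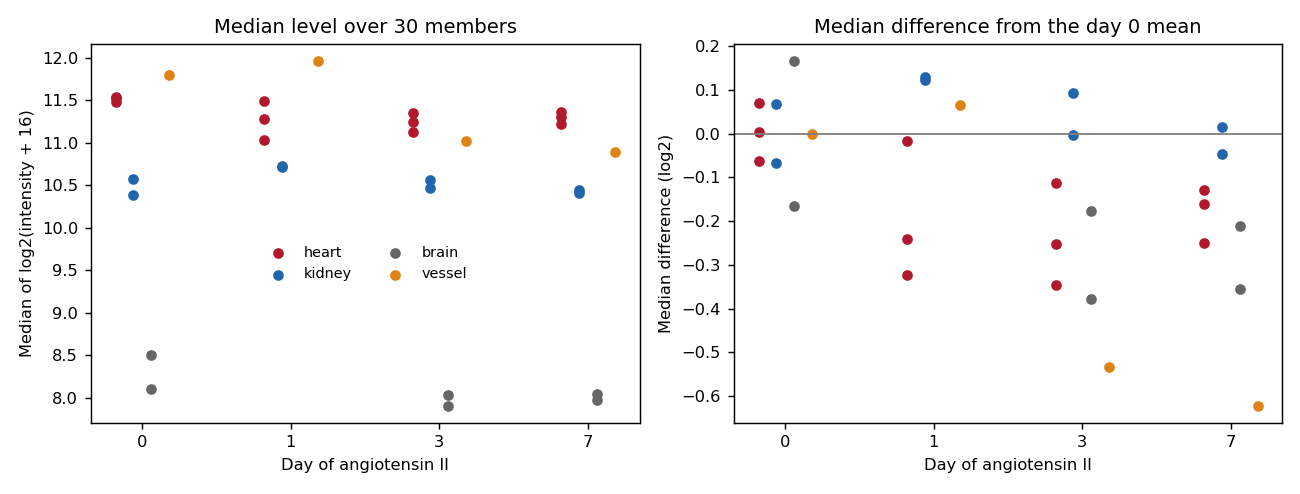
Median over the 30 fatty acid oxidation genes on each array, one point per array, by day of angiotensin II; the left panel gives the median level of log2(intensity + 16) and the right panel the median difference from the day 0 mean of the same tissue. Heart day 0 arrays sat at 11.48 to 11.53 and kidney day 0 arrays at 10.38 to 10.57. By median difference all 9 treated heart arrays lay below the heart day 0 mean. Day 1 replicate 3 did so by only -0.02, nearer to it than untreated replicate 3 at -0.06.

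The first question was how the pathway stood in untreated heart against untreated kidney, which both burn fat. In the joint fit of 26 arrays, 24 of the 30 genes were higher in heart and 2 were lower, against 28.6% and 27.2% of all 14715 genes tested. In either direction 55.7% of genes were called, and 59.8% had an unadjusted p under 0.05, as 27 of the 30 did. The median difference over the 30 genes was 0.83, against 0.05 over all genes tested. Fabp3, Hadha, Ppargc1a, Hadhb and Eci1 stood furthest above kidney, and Cpt1a furthest below it.

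At entry into mitochondria the genes went opposite ways. Cpt1a, the liver form of the carnitine palmitoyltransferase that commits long-chain fatty acids to oxidation, read 506, 476 and 529 in heart and 3094 and 2702 in kidney, a difference of -2.49. Kidney held every array above every heart array for this gene. Slc25a20, the carrier that swaps acylcarnitine for carnitine across the inner membrane, was higher in heart by 0.77 ± 0.11, and Cpt2, which regenerates the acyl-CoA inside, by 0.44 ± 0.18, adjusted p = 0.0497. The Cpt2 call was near the threshold: its adjusted p was 0.147 without heart day 0 replicate 1, 0.0939 without heart day 0 replicate 2, and 0.0689 and 0.268 without kidney day 0 replicates 1 and 2.

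The acyl-CoA dehydrogenases, which open each round of the spiral for chains of different length, did not all go one way. Acadvl, for very long chains, read 4082, 4510.2 and 4091 in heart and 1554 and 1406 in kidney and differed by 1.5 ± 0.13. Acadl, for long chains, was higher in heart by 0.86 ± 0.16. Acadm, for medium chains, was lower in heart by 0.33, with 8185, 8801 and 7916 in heart and 10920.0 and 9969.8 in kidney (adjusted p = 0.0232). That call was lost without heart day 0 replicate 1 (adjusted p = 0.0525), without heart day 0 replicate 3 (adjusted p = 0.0674) or without kidney day 0 replicate 1 (adjusted p = 0.167). Acads, for short chains, differed by 0.07 ± 0.11, adjusted p = 0.619 and was not called, and the groups overlapped. Acadsb, which acts on short branched chains from amino acids, was higher by 0.57 ± 0.12.

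Of the 5 genes of the later steps, 4 were higher in heart. Hadha, the alpha subunit of the trifunctional protein that carries long chains through the last steps, read 2615, 2807 and 2449 in heart and 535 and 521 in kidney and differed by 2.28 ± 0.15. Hadhb, its thiolase-bearing beta subunit, read 7970.1, 8815 and 7648 against 2336 and 2470.3 and differed by 1.75 ± 0.16. Acaa2, the thiolase for shorter chains, read 5372, 5479 and 4871 against 1898 and 1805 and differed by 1.49 ± 0.15. For these 3 genes every heart array lay above every kidney array. Echs1, the short-chain enoyl-CoA hydratase, was higher by 0.75 ± 0.19, with an adjusted p of 0.0536 once kidney day 0 replicate 1 was left out. Hadh, the dehydrogenase for medium and short chains, did not differ by the test (-0.06 ± 0.14, adjusted p = 0.747).

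Enzymes that prepare unsaturated chains and those that take the electrons were higher in heart throughout. Eci1, an isomerase that moves double bonds into the position the spiral needs, read 4673, 4384 and 4282 in heart and 1587 and 1319 in kidney, a difference of 1.61 ± 0.18. Its relative Eci2 differed by 0.66 ± 0.12, and Decr1, the 2,4-dienoyl-CoA reductase, by 0.87 ± 0.17. Etfdh, which passes electrons from the electron transfer flavoprotein to ubiquinone, read 3398, 3757 and 3556 against 1702 and 1434 and differed by 1.18 ± 0.15. The flavoprotein's subunits Etfa and Etfb differed by 0.75 ± 0.16 and 0.86 ± 0.13.

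All 4 uptake and binding genes were higher in heart. Fabp3, the cytosolic fatty acid binding protein of muscle, read 14853, 15376 and 14723 in heart and 1491 and 1429 in kidney, a difference of 3.35 ± 0.08. Cd36, the fatty acid translocase of the cell membrane, read 3884, 4330.3 and 4008 against 1519 and 1295 and differed by 1.53 ± 0.18. Slc27a1, a fatty acid transport protein, differed by 0.95 ± 0.14. Lpl, which frees fatty acids from lipoproteins, differed by 0.87 ± 0.31, adjusted p = 0.0213, and its call was lost without kidney day 0 replicate 2 (adjusted p = 0.209).

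Among the regulators, Ppargc1a separated the tissues most. It read 2278, 2687 and 2290.2 in heart and 637 and 684 in kidney, a difference of 1.84 ± 0.18. Ppargc1b, its relative, was higher by 0.92 ± 0.22 and Esrra by 0.55 ± 0.15. Ppara itself read 660.2, 760.4 and 575 in heart and 628 and 532 in kidney, groups that overlapped (0.19 ± 0.21, adjusted p = 0.477), and Ppard was not called either (0.30 ± 0.13, adjusted p = 0.0617). Mlycd, which destroys the CPT1 inhibitor malonyl-CoA, was higher in heart by 0.71 ± 0.13, and Crat, which buffers acetyl-CoA as acetyl-carnitine, by 0.80 ± 0.16.

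**Figure D2:**
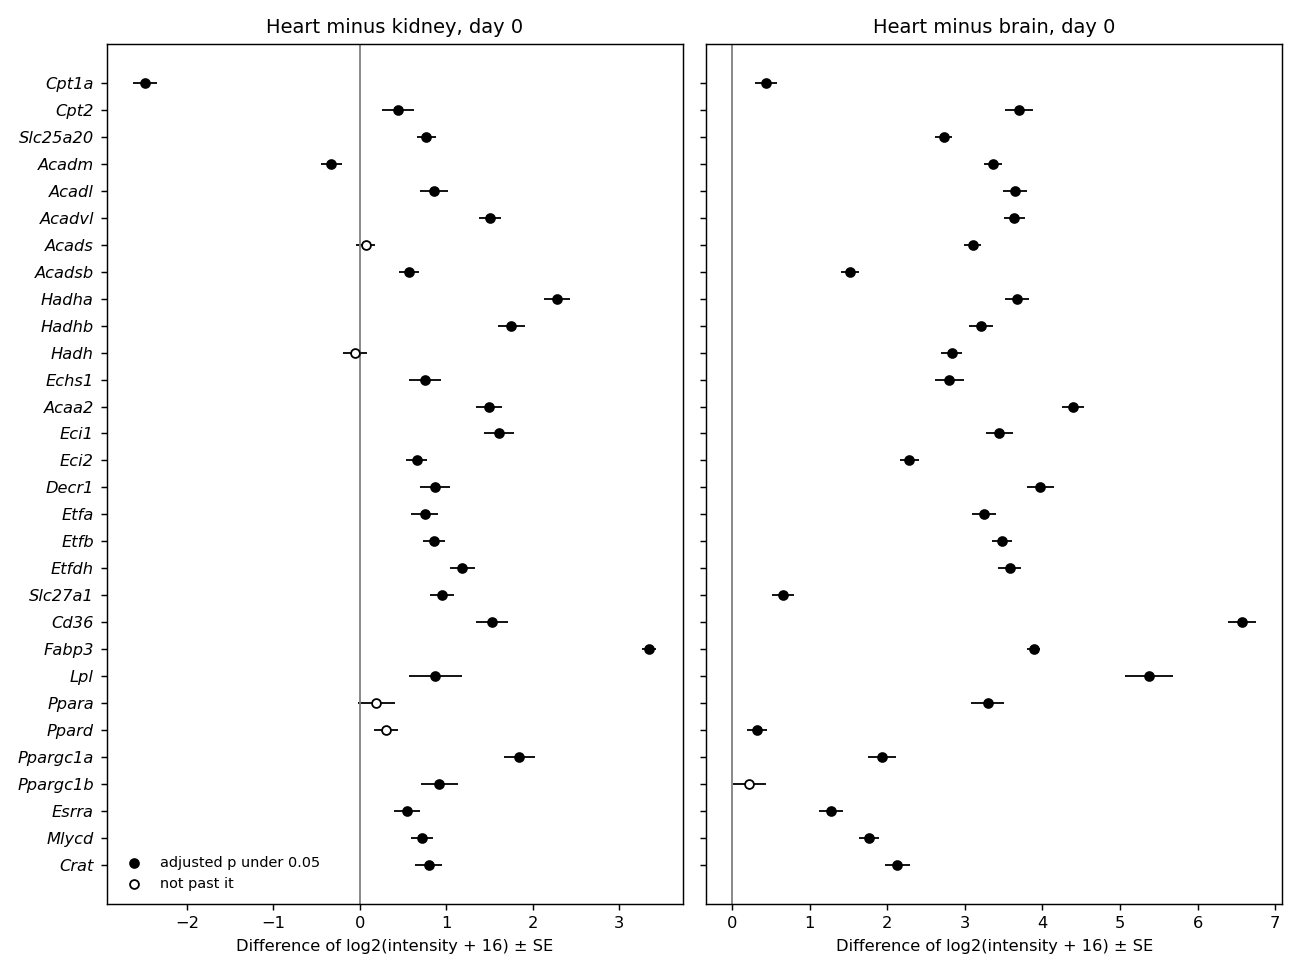
Difference of log2(intensity + 16) between untreated tissues for each of the 30 genes, heart minus kidney on the left and heart minus brain on the right; points are fitted differences, bars 1 SE, filled points have an adjusted p under 0.05. Cpt1a lies far to the left of 0 against kidney while 24 filled points lie to the right of 0, and against brain 29 genes are filled and to the right of 0.

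Untreated brain gave a wider gap. There 29 of the 30 genes were higher in heart, against 37.7% of 14959 genes tested, with a median difference of 3.23. Of all genes 72.9% were called in either direction. Brain day 0 replicate 1 carried kidney markers, with a summed intensity of 4982, against 177 on replicate 2. The part of kidney RNA in the brain levels was not tested. Lpl differed by 5.37 ± 0.31, with 15633, 16254 and 15646 in heart and 358 and 377 in brain. Cd36 read 3884, 4330.3 and 4008 in heart and 32 and 22.2 in brain, where it was dim, so the size of its difference depends on the added value (5.51 with 64, 7.2 with 1). Ppargc1b was the gene not called (0.22 ± 0.22, adjusted p = 0.362), and it read 720.1, 867 and 738 in heart and 859 and 507 in brain. Cpt1a and Ppard had the smallest called differences, 0.43 and 0.32. Both calls were lost without brain day 0 replicate 2, with an adjusted p of 0.229 for Cpt1a and 0.398 for Ppard, and that of Ppard also without heart day 0 replicate 1 (adjusted p = 0.109) or replicate 2 (adjusted p = 0.131).

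Taking the 4 tissues at day 0 as means, 28 genes were lowest in brain and 2 in kidney, while 23 were highest in vessel, 6 in heart and 1, Cpt1a, in kidney. The vessel value is a single array on which adipocyte markers had a summed intensity of 53590, against 306 to 307 on the kidney day 0 arrays and 1211 to 1222 on the heart day 0 arrays. The part of adipocyte RNA in the vessel levels was not tested.

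The next question was what angiotensin II did to the pathway in heart. After 1 day 5 of the 30 genes fell and none rose, against 8.57% of 14040 genes that fell and 4.86% that rose. They were Ppargc1a, Ppara and Esrra, all 3 of them regulators, with Cpt2 and Mlycd. Over the 30 genes the median difference was -0.19, against -0.02 over all genes tested, and 27 of 30 differences were negative, against 54.8% of all genes. The regulators Ppargc1a and Ppara differed by over 1 on the log2 scale, and no enzyme or carrier did.

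Ppargc1a read 2278, 2687 and 2290.2 at day 0 and 906, 829 and 1369.5 at day 1, then 1776, 1466 and 1677 at day 3 and 1753, 1847 and 2291 at day 7. Every day 1 array was below every day 0, day 3 and day 7 array. The day 1 fall was -1.24 ± 0.17, adjusted p = 0.0019, and the 5 probe sets of the gene gave -1.20 to -1.51.

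Ppara read 660.2, 760.4 and 575 at day 0, 267, 228 and 397 at day 1, 512, 462 and 466 at day 3 and 452, 324 and 400.0 at day 7. Day 1 was again below day 0 on every array, and no day 3 or day 7 array reached the lowest day 0 array. The day 1 fall was -1.15 ± 0.18, adjusted p = 0.00347, with -1.15, -1.22 and -1.09 from its 3 probe sets. Both genes were called in all 14 alternative fits, those without each day 0 or day 1 array among them.

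The other calls were smaller and rested on particular arrays. Cpt2 read 1875, 1712 and 1486 at day 0 and 965, 905 and 1414 at day 1, and fell by 0.64 ± 0.14 (adjusted p = 0.0144). Its call was lost in 5 of 14 alternative fits, among them those that dropped replicate 1 or 2 of either day, with adjusted p between 0.0567 and 0.0786. Esrra read 566, 663 and 664 and then 505, 349 and 477, with no overlap, and fell by 0.51 ± 0.13 (adjusted p = 0.0254). It was lost without day 0 replicate 2 (adjusted p = 0.0947), day 0 replicate 3 (0.0707) or day 1 replicate 2 (0.098), and its other, dimmer probe set differed by -0.04. Mlycd read 481, 528 and 472 and then 366, 290.2 and 439, and fell by 0.44 ± 0.13 (adjusted p = 0.0425). That call was lost in 10 of 14 fits, 5 of which left out an array, with adjusted p up to 0.172 when day 1 replicate 2 was dropped.

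**Figure D3:**
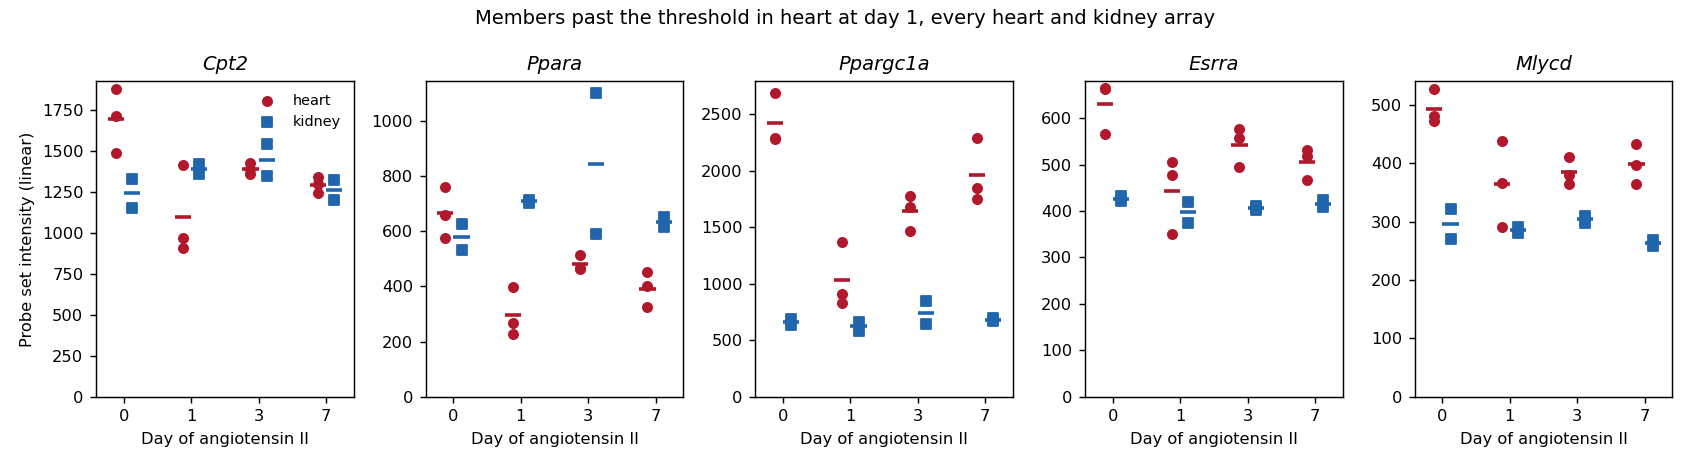
Probe set intensity (linear scale from 0) of the 5 genes called in heart at day 1, by day of angiotensin II, with 1 point per array, circles for heart, squares for kidney and bars for group means. In heart, Ppargc1a was 829 to 1369.5 at day 1 against 2278 to 2687 at day 0, while in kidney it was 585 to 663 at day 1 and 637 to 684 at day 0.

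The promoters of the 3 genes with the largest falls are shown because these genes fell together at day 1. The 250 bases before the transcription start were read from RefSeq on mouse build GRCm38.p6, printed 5′ to 3′ on the gene's strand, with matches to the searched motifs in capitals; Ppargc1a lies at chr5:51567726-51567975 on the minus strand, Ppara at chr15:85735526-85735775 on the plus strand and Cpt2 at chr4:107923590-107923839 on the minus strand.
Ppargc1a: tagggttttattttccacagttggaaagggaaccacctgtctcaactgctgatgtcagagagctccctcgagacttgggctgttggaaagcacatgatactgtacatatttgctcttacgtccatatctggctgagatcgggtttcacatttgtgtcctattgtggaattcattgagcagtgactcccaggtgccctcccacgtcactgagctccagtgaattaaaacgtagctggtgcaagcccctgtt
Ppara: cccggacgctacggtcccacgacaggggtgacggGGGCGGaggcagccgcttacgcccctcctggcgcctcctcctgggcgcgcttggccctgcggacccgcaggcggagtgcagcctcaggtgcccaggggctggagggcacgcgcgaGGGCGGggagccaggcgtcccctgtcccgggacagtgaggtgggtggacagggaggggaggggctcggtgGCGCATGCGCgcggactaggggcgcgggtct
Cpt2: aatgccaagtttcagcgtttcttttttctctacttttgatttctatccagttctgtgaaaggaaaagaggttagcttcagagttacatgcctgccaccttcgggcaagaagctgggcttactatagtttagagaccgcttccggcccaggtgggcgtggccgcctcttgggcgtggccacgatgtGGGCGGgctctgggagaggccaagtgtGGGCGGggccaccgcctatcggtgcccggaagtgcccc
The capitals mark the GC box GGGCGG and, in Ppara, the NRF1 letters GCGCATGCGC. Motifs were searched on both strands: AAGGTCA (the site of estrogen-related receptors), the PPAR response element (a direct repeat that can overlap the former), TGACGTCA (the cAMP response element), the NRF1 site, GGGCGG and CCAAT. Their shares among 32851 mouse promoters cut to the same length were 4.08%, 0.0335%, 1.55%, 3.74%, 32.7% and 33.8%. No searched motif was in the Ppargc1a window of 250 bases, which says nothing of sites outside it. Cpt2 held 2 GC boxes, and Ppara held 2 GC boxes and the NRF1 letters at 31 to 22 bases before its start. Esrra held 2 GC boxes and Mlycd 3 CCAAT boxes in the same windows. Of the 30 genes, 25 had a promoter in the table, with 27 promoters, of which 18 held GGGCGG, 11 CCAAT, 3 the NRF1 site and 1, that of Acadm, AAGGTCA. GC content was 76.4% for Ppara and 48% for Ppargc1a, against a median of 52.4% over all promoters. The median over the 27 promoters of the 25 genes was 60.4%, and the part of GC content in the GGGCGG count was not tested.

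Day 1 replicate 3 stood apart from the other day 1 hearts. It was the highest of the 3 for 28 of the 30 genes, with 15 genes below the day 0 mean, against 28 in replicate 1 and 28 in replicate 2. Its median difference from day 0 was -0.02, against -0.24 and -0.32. Neutrophil markers had a median of 5.81 in replicate 3, 7.12 in replicate 1 and 8.16 in replicate 2, against 5.64 to 5.90 at day 0, and macrophage markers 8.16, 8.82 and 9.32, against 7.53 to 7.82. The part of these cells in the falls was not tested. Without day 1 replicate 3, 14 of the 30 genes fell. Leaving out either of the other day 1 arrays gave 3 (replicate 1) and 2 (replicate 2), and leaving out the untreated replicates 1 and 2 gave 3 and 2. Over all 14040 genes tested, leaving out 1 array gave 405 to 3441 calls, against 1886 with every array. The swing was therefore not particular to the 30 genes.

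By role, the day 1 heart differences that did not pass ran from -0.41 to 0.12. The largest of them were near the called Mlycd difference of -0.44. The 3 entry genes gave -0.03 for Cpt1a, -0.28 for Slc25a20 and the Cpt2 fall. The 5 dehydrogenases ran from -0.34 for Acads, whose adjusted p was 0.053, to -0.02 for Acadl. The 5 later enzymes ran from -0.41 for Echs1 (adjusted p = 0.0573) to -0.12, though the other, dimmer Hadhb probe sets gave 0.12 and -0.26. Of the auxiliary enzymes, Eci1 gave -0.31, Eci2 -0.09 and Decr1 0.01, though the other, dimmer Decr1 probe set gave -0.31. Crat gave -0.32. The 3 electron transfer genes gave -0.21 for Etfa, -0.23 for Etfb and -0.35 for Etfdh. Uptake and binding genes stayed between -0.10 for Fabp3 and 0.12 for Slc27a1, none with an unadjusted p under 0.05. Their other probe sets ranged more widely, with 0.03 and -0.27 for Cd36, 0.16 for Slc27a1 and 0.17 for Fabp3. Ppard and Ppargc1b, the remaining regulators, gave -0.10 and -0.12. In all, 13 of the 30 genes had an unadjusted p under 0.05, against 28.4% of genes tested, and in 9 the day 1 arrays were all below the day 0 arrays, against 18.4%.

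**Figure D4:**
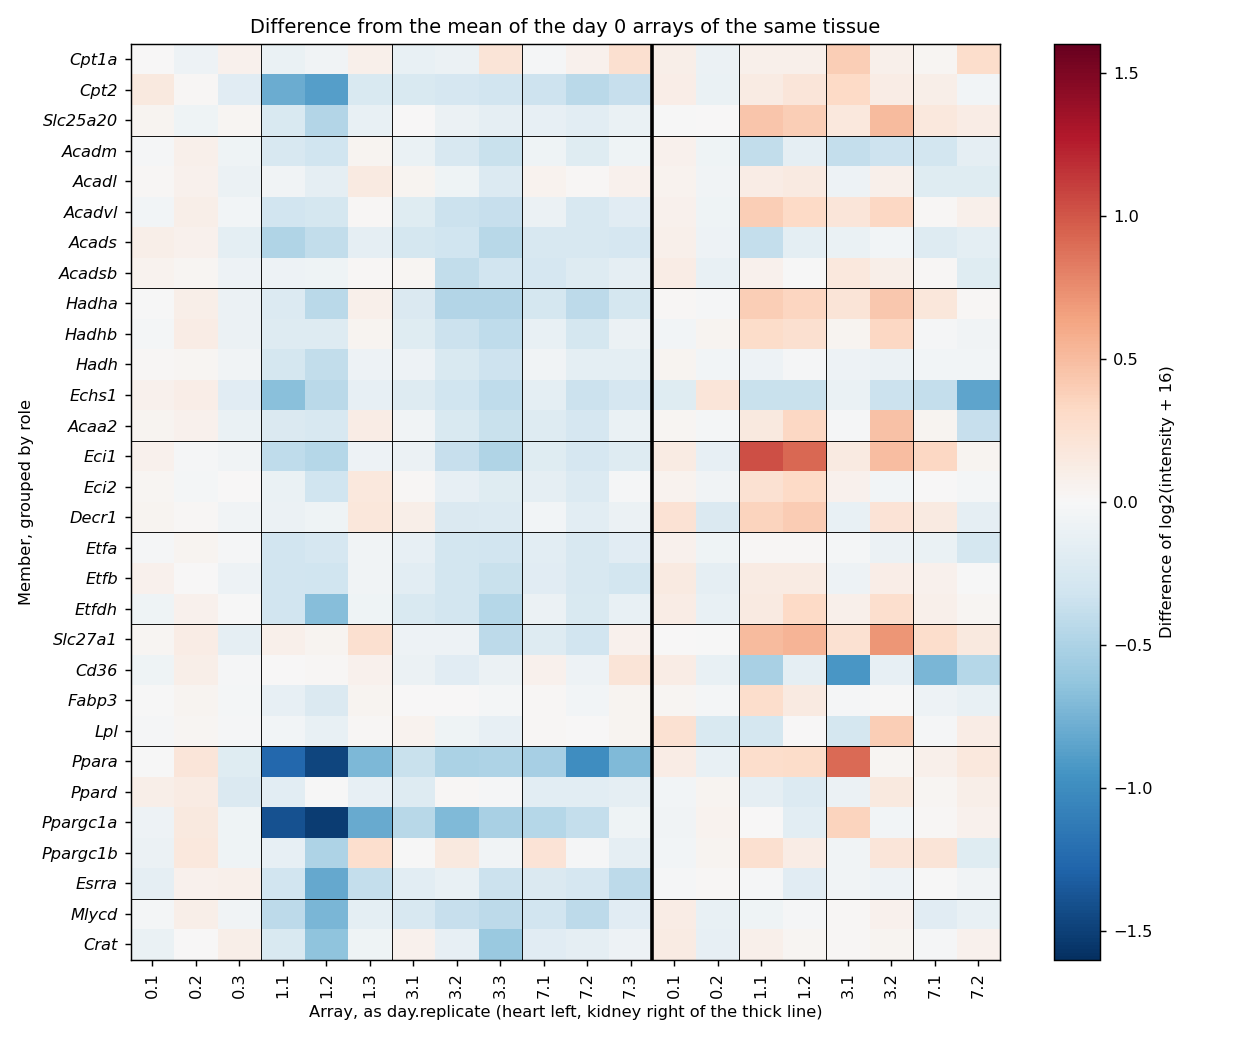
Difference of log2(intensity + 16) from the day 0 mean of the same tissue for each of the 30 genes (rows, grouped by role) on each heart and kidney array (columns, as day and replicate). Ppara and Ppargc1a are the darkest rows at heart day 1, and Eci1 is the darkest row at kidney day 1. Most heart rows are pale blue at days 1, 3 and 7. The exception is day 1 replicate 3, with 15 rows below the day 0 mean and 15 above it.

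At days 3 and 7 none of the 30 genes was called in heart, where 12 genes (0.0855%) and 7 genes (0.0499%) were called in all. The same day 0 arrays serve each comparison, so they are not independent. Differences were negative for 29 genes at day 3 and 24 at day 7, against 54.3% and 55.5% of all genes. The medians were -0.22 and -0.16, against -0.02 over all genes tested at either day. In 16 genes the day 3 arrays were all below the day 0 arrays, against 10.4% of genes, and in 16 the day 7 arrays were, against 11.9%. None had all treated arrays above day 0 at either day, against 7.4% and 9.28% of genes. An unadjusted p under 0.05 was reached by 14 genes at day 3, against 12% of genes, and by 8 at day 7, against 8.88%.

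The largest differences at day 3 were -0.56 ± 0.17, adjusted p = 0.223 for Ppargc1a, -0.45 ± 0.18, adjusted p = 0.336 for Ppara, -0.39 ± 0.13, adjusted p = 0.252 for Hadha and -0.35 ± 0.13, adjusted p = 0.314 for Mlycd. Mlycd read 410.1, 379 and 365 at day 3 and 397, 365 and 434 at day 7. Hadha read 2615, 2807 and 2449 at day 0, 2244, 1940.4 and 2767 at day 1, 2236, 1886 and 1881 at day 3 and 2159, 1958 and 2155 at day 7. It was therefore lower at days 3 and 7 without overlap, but overlapped day 0 at day 1. At day 7 the largest were -0.74 ± 0.18, adjusted p = 0.277 for Ppara, -0.38 ± 0.14, adjusted p = 0.484 for Cpt2, -0.32 ± 0.13, adjusted p = 0.49 for Hadha and -0.31 ± 0.13, adjusted p = 0.529 for Esrra. Cpt2 read 1425, 1390.5 and 1355 at day 3 and 1337, 1242 and 1297 at day 7, and Esrra 557, 576 and 494 and 532, 519 and 466. Macrophage markers had medians of 8.40 to 9.32 at day 3 and 7.63 to 8.68 at day 7. The 5 fibroblast markers summed to 10852 to 15507 at day 0, 15592 to 23336 at day 3 and 16696 to 17088 at day 7, and 1 of the 5, Col1a1, rose at day 3 (1.76, adjusted p = 0.0332). The part of these cells in the day 3 and day 7 values was not tested. The lowest of the heart group means was at day 1 for 14 genes, at day 3 for 14 and at day 7 for 2.

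Against day 1 directly, Ppargc1a and Ppara rose by day 3, and Ppargc1a by day 7. The day 3 differences were 0.69 ± 0.17, adjusted p = 0.0414 for Ppargc1a and 0.70 ± 0.18, adjusted p = 0.0454 for Ppara, 2 of 30 genes against 2.83% of genes that rose and 1.47% that fell (4.3% in all). Ppargc1a rose by 0.94 ± 0.17, adjusted p = 0.0144 from day 1 to day 7, 1 of 30 genes against 2.8% that rose and 2.12% that fell (4.92% in all), while Ppara did not pass (0.40 ± 0.18, adjusted p = 0.203). Both comparisons share the day 1 arrays. An unadjusted p under 0.05 was reached by 5 genes for day 3 and 3 for day 7, against 20.1% and 21.9%. Without overlap 2 genes were higher and 2 lower at day 3, against 11.4% and 7.13%, and 1 each at day 7, against 14.7% and 10.7%. The count of 2 at day 3 was 0 without day 1 replicate 1 or 2 and without any 1 of the day 3 arrays. The count of 1 at day 7 was 0 without day 1 replicate 1 or 2 or day 7 replicate 2 or 3, and 3 without day 1 replicate 3. Over all 14040 genes the counts ran from 0 to 2049 for day 3 and from 11 to 2482 for day 7 when 1 array was left out. Day 3 replicate 1 also had an atrial marker median of 9.24, against 11.86 to 12.73 on the other heart arrays.

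Genes around the pathway were followed in 7 lists that held 106 genes on the array, and their counts stand beside 8.57% of all genes that fell in heart at day 1 and 4.86% that rose. In heart at day 1, 5 of 12 genes of peroxisomal oxidation, which shortens very long chains, fell and none rose, with Amacr at -0.91, Crot at -0.65, Abcd3 at -0.62 and Ehhadh at -0.53. In other beta-oxidation genes 6 of 19 fell, with Acad11 at -1.06, Acsl6 at -0.73 and the carnitine transporter Slc22a5 at -0.57, and Acsl4, an arachidonate-preferring synthetase, rose by 0.65. Ketone body genes gave 2 falls of 3, Bdh1 at -1.07 and Oxct1 at -0.40. Acacb, which makes the malonyl-CoA that restrains CPT1, and Thrsp fell by 0.53 and 0.79, 2 of 11 synthesis genes. No gene of the 7 lists was called at day 3 or day 7 against day 0.

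Glucose genes and partners of the regulators gave both directions, again beside 8.57% of all genes lower and 4.86% higher, and counts of 1 or 2 in these lists lie near those shares. Of 24 glucose genes 2 rose and 10 fell: the basal transporter Slc2a1 rose by 0.96 and Pfkp by 0.53, while Pfkfb2, the insulin-sensitive transporter Slc2a4 and the pyruvate dehydrogenase kinase Pdk2 fell by 1.11, 0.99 and 0.62. Slc2a1 read 230.1, 264 and 257 at day 0 and 546, 688 and 335 at day 1, and Slc2a4 1986, 2266 and 1949 and then 989, 722 and 1538, so replicate 3 was nearest to day 0 in both. Of 19 partners 5 fell, among them Sirt3 (-0.96), Rxrg (-0.93), Perm1 (-0.75) and Esrrg (-0.69), and Pprc1, a relative of Ppargc1a, rose by 0.84. Of 13 other lipid genes of PPAR alpha, Angptl4, a secreted inhibitor of Lpl, rose by 2.04 and Plin5, a lipid droplet coat protein, fell by 0.61. Angptl4 read 108, 92 and 125 at day 0 and 680.4, 905 and 188 at day 1.

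In kidney no fatty acid oxidation gene was called at any day. At day 1, 71 genes (0.5%) were called in all, and at days 3 and 7 none, where 8.46% and 6.68% of 14214 genes had an unadjusted p under 0.05. The counts of the 30 genes with an unadjusted p under 0.05 were 10 at day 1, against 16.3% of genes tested, 5 at day 3 and 1 at day 7. The median differences were 0.13, 0.05 and 0.00, against 0.01, 0.01 and 0.02 over all genes tested. Of the 30 genes 20, 22 and 16 were positive, against 51.6%, 53.9% and 55.7% of all genes. At day 1, 15 genes were higher and 6 lower without overlap, against 26.2% and 22.7% of all genes. The counts were 7 higher and 4 lower at day 3, against 20.4% and 16.3%, and 3 higher and 8 lower at day 7, against 21.2% and 15.3%.

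Eci1 differed most at day 1. It read 1587 and 1319 at day 0 and 2974 and 2751 at day 1, then 1606 and 2034 at day 3 and 1819 and 1492 at day 7 (0.98 ± 0.16, adjusted p = 0.0586 for day 1). Both day 1 arrays lay above every other kidney array. Slc27a1 read 96.8 and 96.7 and then 144 and 149 (0.53 ± 0.15, adjusted p = 0.158), Slc25a20 1875 and 1904 and then 2584 and 2481 (0.42 ± 0.11, adjusted p = 0.157), and Decr1 2831 and 2047 and then 3096 and 3193 (0.38 ± 0.18, adjusted p = 0.353). The other, dimmer Decr1 probe set went the other way in kidney at day 1, by -0.16. The day 1 arrays are those with summed adipocyte marker intensities of 5442 and 6407, against 306 to 307 at day 0. On day 3 replicate 2, with 14267, Slc27a1 read 168, against 117 on replicate 1 with 369. Ppara read 1101 and 589 on the day 3 arrays. The part of adipocyte RNA in these values was not tested, and a covariate given with the tissue comparison cannot separate it from day 1.

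At days 3 and 7 Cd36 was among the genes that differed most. It read 1519 and 1295 at day 0, 977 and 1273 at day 1, 727 and 1273 at day 3 and 835 and 1013 at day 7, with differences of -0.53 ± 0.26, adjusted p = 0.624 at day 3 and -0.60 ± 0.26, adjusted p = 0.746 at day 7. Acadm gave -0.36 ± 0.11, adjusted p = 0.468 at day 3, with 7995 and 8272, and -0.22 ± 0.11, adjusted p = 0.774 at day 7, with 8509.7 and 9424. Slc27a1 read 121 and 109.8 at day 7. Echs1 gave -0.61 ± 0.18, adjusted p = 0.731 at day 7, with 832 and 598 against 951 and 1245 at day 0. Kidney genes of the neighbouring lists held 2 calls at day 1. Cyp4a14, a fatty acid omega-hydroxylase with closely related family members, rose by 2.70, from 603 and 905 to 4801 and 4995, and Eci3, a peroxisomal isomerase, fell by 0.89, from 4111 and 3431 to 2015 and 2015.

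The difference between the heart and kidney responses was then tested directly. At day 1 it passed for 4 of the 30 genes, all lower in heart, against 2.51% of 14715 genes. They were Ppara (-1.43 ± 0.30, adjusted p = 0.014), Eci1 (-1.29 ± 0.25, adjusted p = 0.00866), Ppargc1a (-1.16 ± 0.25, adjusted p = 0.0172) and Slc25a20 (-0.70 ± 0.15, adjusted p = 0.0187). The median over the 30 genes was -0.37, against -0.02 over all genes tested, with 26 of 30 negative, against 53.7% of all genes. At day 1, 18 genes were lower in heart and higher in kidney, 9 lower in both, 2 higher in both and 1 the other way. In kidney alone Ppargc1a gave -0.08 and Ppara 0.29. Eci1 gave -0.31 in heart and 0.98 in kidney, and Slc25a20 -0.28 and 0.42, none of them called in either tissue alone.

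Some of these calls rested on kidney arrays, and that of Ppargc1a also on a heart array. Without heart day 1 replicate 1, Ppargc1a gave -1.08 (adjusted p = 0.0528). The count of 4 was 0 without kidney day 0 replicate 2, the array with adrenal markers, and 2 without kidney day 0 replicate 1, day 1 replicate 1 or day 1 replicate 2, and it was 11 without heart day 1 replicate 3. Over all genes tested the number called also moved widely when 1 array was left out. The adipocyte marker median was added as a covariate in kidney after seeing the data. With it Ppara gave -2.12 (adjusted p = 0.00385) and Ppargc1a -1.47 (adjusted p = 0.0396). Eci1 gave -1.03 (adjusted p = 0.173) and Slc25a20 -0.44 (adjusted p = 0.339). Within a group this median differed widely only between the kidney day 3 arrays, of which replicate 2 also had adrenal markers. The covariate therefore rests mainly on that pair and cannot separate adipocyte RNA from day 1. At day 3 none of the 30 was called, where 8 genes (0.0544%) were in all, although 12 had an unadjusted p under 0.05, against 8.57% of genes. At day 7 none was called of 4 genes (0.0272%), and 2 had an unadjusted p under 0.05, against 4.63%. The largest differences at day 3 were -0.92 ± 0.30, adjusted p = 0.337 for Ppara, -0.71 ± 0.25, adjusted p = 0.4 for Ppargc1a, -0.71 ± 0.22, adjusted p = 0.317 for Hadha and -0.67 ± 0.20, adjusted p = 0.295 for Slc27a1. At day 7 they were -0.87 ± 0.30, adjusted p = 0.868 for Ppara and 0.66 ± 0.26, adjusted p = 0.959 for Cd36.

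**Figure D5:**
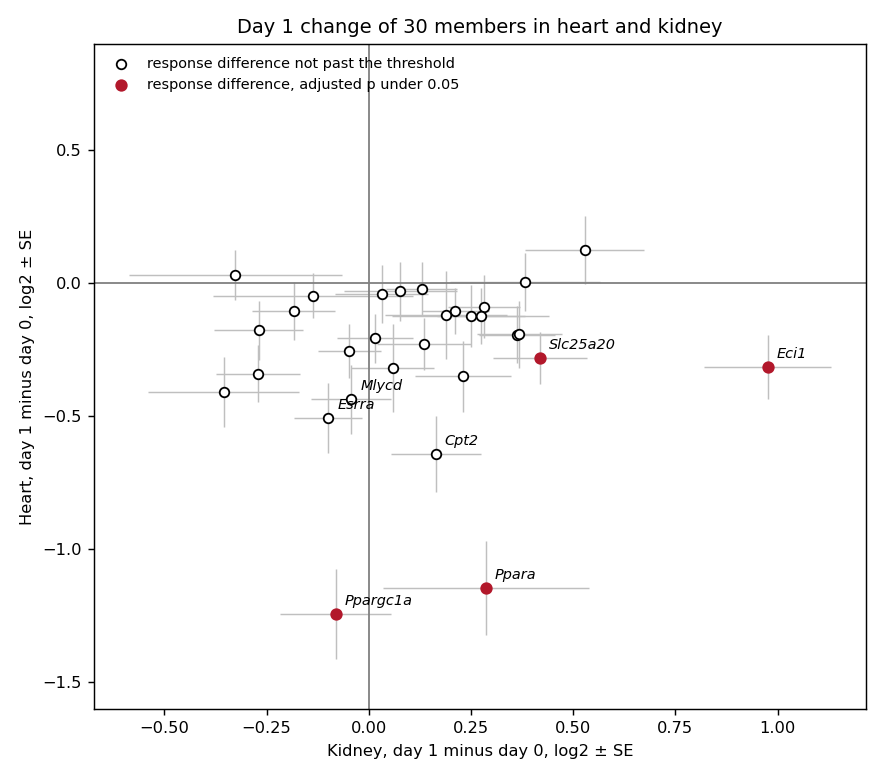
Day 1 minus day 0 difference of the 30 genes in heart (vertical) against kidney (horizontal), on the log2(intensity + 16) scale with bars of 1 SE; filled points have a response difference with an adjusted p under 0.05. Ppara and Ppargc1a lie lowest, at -1.15 and -1.24 in heart, and Eci1 lies furthest right, at 0.98 in kidney.

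In brain no gene of the 14113 tested was called at day 3 or day 7, while 7.38% and 7.13% had an unadjusted p under 0.05, and so did 4 of the 30 genes at each day. Differences were negative for 28 and 27 of the 30, against 54.0% and 57.0% of all genes. The medians were -0.28 and -0.26, against -0.02 and -0.04 over all genes tested. At day 3, 12 genes were lower and 1 higher without overlap, against 21.4% and 15.4%, and at day 7, 12 and 2, against 24% and 16.3%. Ppargc1b read 859 and 507 at day 0, 339 and 423 at day 3 and 439.7 and 316 at day 7, with differences of -0.78 ± 0.30, adjusted p = 0.662 and -0.80 ± 0.30, adjusted p = 0.666. Cpt1a read 429 and 316, 232 and 283 and 228 and 226 and differed by -0.50 ± 0.18, adjusted p = 0.662 and -0.66 ± 0.18, adjusted p = 0.666. Decr1 read 319 and 221, 154 and 219 and 188 and 187. Acadl at day 3 read 251 and 368 against 543 and 343, and Ppara at day 7 33.6 and 35.1 against 57.3 and 49. The day 0 arrays disagreed, with 27 of the 30 genes above their day 0 mean on replicate 1 and 3 on replicate 2. Replicate 1 also had a brain marker median of 11.84, against 12.58 on replicate 2 and 12.65 to 12.78 later, and kidney markers at a median of 6.27, against 5.06. Kidney markers also summed to 2766 on day 7 replicate 2, against 265 on day 7 replicate 1. The part of those differences in the brain values was not tested.

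Vessel had 1 array a day, so its values carry no test. The median of the 30 genes differed from day 0 by 0.06 at day 1, -0.53 at day 3 and -0.62 at day 7, against 0.04, 0.01 and 0.01 over all genes. At day 3, 13 genes were lower by over 1.5-fold and 1 higher, against 5.13% and 10.6% of 14295 genes, and at day 7, 18 were lower and none higher, against 5.93% and 10.9%. At day 1 there was 1 each way, Ppargc1a lower and Fabp3 higher, against 3.24% and 2.67%. Fabp3 read 6637 at day 0, 10258 at day 1, 3796 at day 3 and 2188 at day 7. Ppara read 965, 1444, 513 and 486, and Echs1, the hydratase, 2207, 2268, 1021 and 1098. Cpt1a was the exception at day 3, with 501, 389.9, 792 and 694. On the same arrays adipocyte markers had medians of 11.83, 11.76, 11.14 and 10.87, heart muscle markers summed to 16922, 9123, 1915 and 16376, and fibroblast markers to 16812, 11072, 33516 and 28534. How much each tissue contributed to the vessel values was not tested.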

How the data were processed

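RNA from 30 samples was measured on Affymetrix Mouse Genome 430 2.0 arrays. The deposited values are probe set intensities on a linear scale, which the authors obtained from the Affymetrix Expression Console software, per the submitters' processing notes; which algorithm and version it ran is not given in the sources used here. Of 45101 probe sets, 64 were controls, 34945 carried 1 gene symbol, 932 several and 9160 none. Each of the 18193 genes was represented by its single-symbol probe set with the highest mean log2(intensity + 16) over all arrays. Cpt1b, whose probe set carries several symbols, and Acsl1 were not analysed here.

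Groups came from the labels. Genes were kept if above the array's 40th percentile on as many arrays as the smallest group has. Heart (12 arrays), kidney (8) and brain (6) were fitted separately with limma 3.58.1 in R 4.3.3 (lmFit, eBayes), and comparisons of tissues in a joint fit of 26 arrays in 11 groups. P-values were two-sided, Benjamini-Hochberg adjusted over all genes tested, with a threshold of 0.05. Each sets a difference against the spread between samples within all groups of the fit, moderated across genes. Tables were made with Python 3.11.15. Tested on simulated data for heart day 1 (14040 genes), the fit recovered 89.6% of genes changed 2-fold and 55.2% of those changed 1.5-fold. It also called 19 genes that had not been changed. The simulation drew noise independently for each gene and changed fewer genes than were called here. It held no shift shared across genes, such as that of day 1 replicate 3, so recovery in these data may differ.

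All members could be named. Array values were given for the members called in heart at day 1 and the 10 with the largest difference between untreated heart and kidney, and, where none was called, for the 4 that differed most. Of each other list up to 4 called genes were named, by size; Pfkp and Esrrg were named after their values were seen. The members and lists were chosen with earlier results of these data known. Alternatives covered normalization, filter, added value, probe set choice, a replicate block, the samples fitted and leaving out each array.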

Additional observations from a re-analysis of the deposited data

Results flagged for a closer look

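The day 1 response of 4 fatty acid oxidation genes differed between heart and kidney by the test of the difference itself (limma, joint fit). The heart minus kidney response was -1.43 for Ppara, -1.29 for Eci1, -1.16 for Ppargc1a and -0.70 for Slc25a20. Ppara and Ppargc1a fell in heart, whereas neither Eci1 nor Slc25a20 was called in either tissue alone. Adipocyte markers were high on the kidney day 1 arrays, and adrenal markers on kidney day 0 replicate 2.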

How the results depend on the processing

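Counts of fatty acid oxidation genes called were recomputed under 121 alternatives other than leaving out an array, and 107 stayed within 1.5 times. The 121 include comparisons in which none of the 30 genes was called, where most counts stayed at 0. That share therefore says little about the calls after angiotensin II. The 14 that moved follow, none of them between untreated tissues. For heart day 1 minus day 0 the count of 5 became 8 with an added value of 64 and 2 with only the groups compared. It became 1 for heart day 7 minus day 0 with only the groups compared. For heart day 3 minus day 1 it was 0 with no filter, 0 with an added value of 1, 0 with only the groups compared, 1 with the mean of probe sets and 1 with the replicate block. For heart day 7 minus day 1 it was 0 with only the groups compared. Kidney day 1 minus day 0 gave 1 with quantile normalization and 1 in the joint fit, and brain day 7 minus day 0 gave 1 in the joint fit. The response difference at day 1 gave 2 with only the groups compared and 2 with the adipocyte covariate. That covariate was chosen after seeing the data and rests mainly on the kidney day 3 arrays. The cause was not tested.

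Leaving out 1 array gave 2 to 14 for heart day 1 minus day 0, 0 to 3 for heart day 3 minus day 1, 0 to 3 for heart day 7 minus day 1, 0 to 11 for the response difference at day 1 and 0 to 1 at day 3. It gave 23 to 26 for heart against kidney and 27 to 30 for heart against brain. Counts over all genes tested moved too, from 405 to 3441 of 14040 for heart day 1 minus day 0, so these ranges are not particular to the 30 genes. Of 67 called differences followed through 844 fits, 0 changed sign and 77 fits did not pass. Of the 67, 55 were between untreated tissues, and 49 of those passed in every fit. Of the other calls, only those of Ppara and Ppargc1a in heart at day 1 passed in every fit. With the replicate block 4 genes were called in heart at day 1. Same-number correlations were over 0.1 in 2 of 18 heart pairs, 8 of 12 kidney pairs (median 0.153) and 2 of 6 brain pairs. With 2 arrays a group, the kidney values for different numbers (median -0.153) are these with the sign reversed by construction. They add nothing on pairing, and the same holds in brain. No tissue had every same-number pair over 0.1, and the numbers were not taken as pairing. With the block the response difference at day 1 still gave 4 and kidney 0 at each day. With 2 or 3 arrays a group, small changes could not be told from the spread.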
